A study of Homo sapiens with 12 samples.

Results

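A passage-dependent knockout effect is a difference between knockout and wild-type (WT) cells that is not of the same size at both passages of a culture. It was measured here as a contrast of contrasts: the log2 fold change of dKO over WT neural progenitor cells (NPCs) at passage 4, minus the same fold change at passage 2. The same value is the passage change of dKO NPCs minus the passage change of WT NPCs, and it is called the interaction below. It used 8 of the 12 RNA sequencing libraries of the series and the 13454 of 58302 counted genes that had a mean of at least 20 raw counts over the 12 libraries. A gene was called at an unadjusted p below 0.05 and an interaction above 2-fold, and 2595 genes passed.

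All cells came from H1, a human embryonic stem cell line, and were turned into NPCs that were kept as neural spheres. dKO cells carry CRISPR deletions in UTX (KDM6A) and JMJD3 (KDM6B), made in knock-out cell clones of the line, which remove the catalytic site of the JmjC domain, and WT cells carry neither deletion. The 4 groups were WT NPCs and dKO NPCs with no passage in their labels, and WT NPCs and dKO NPCs labelled P4, each with 2 libraries. The study's text places the first pair at passage 2. Cells differentiated for 28 days (day 28, 2 WT and 2 dKO libraries) entered the count filter and the fit's shared estimate of the spread. They also gave a comparison between genotypes that has no library in common with the fold changes of the interaction.

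UTX and JMJD3 are demethylases that take methyl groups off lysine 27 of histone H3, a mark that the Polycomb complex PRC2 writes on silenced genes, many of them regulators of development with promoters rich in CpG. In the forming cortex, radial glial progenitors first renew themselves, then give rise to neurons through a cascade of proneural factors, and later to astrocytes.

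Passage 2 libraries were shallower, with 756942 to 1438807 counts, than passage 4 libraries, with 3174410 to 4220037 counts. The 2 libraries of a group differed by more than 2-fold in 892 genes in WT and 508 in dKO NPCs at passage 2. At passage 4 they did so in 112 genes in WT and 57 in dKO NPCs, and at day 28 in 23 and 705 genes. The share of counts from mitochondrial genes was 1.66 to 1.79% at passage 2 and 3.70 to 4.37% at passage 4, in both genotypes. The labels give no batch and do not say whether the libraries of a group came from separate cultures, so passage and batch cannot be told apart and p-values measure only the spread between these libraries. The markers of NPCs were present in every library: the summed level of the 13 tested markers lay between 7080 and 9637 CPM (counts scaled to the size of the library). Of 8 pluripotency markers, 6 had no count in any NPC library, among them POU5F1 and NANOG. Only L1TD1 passed the count filter, and it was called with a higher interaction (8.3). Its level was 3.916 and 7.454 CPM in WT against 3.003 and 6.364 CPM in dKO NPCs at passage 2. At passage 4 it was 0 in both WT libraries and 7.73 and 7.602 CPM in dKO NPCs, so the fitted value rests on a group with no reads.

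KDM6A and KDM6B transcripts were counted in every dKO library. The counts are summed over a gene and do not resolve the deleted part. The paper's qRT-PCR did not detect the deleted genes in the corresponding knock-out lines during differentiation to NPCs. Why reads remained was not tested. KDM6A stood at 61.4 and 54.4 CPM in WT NPCs and at 39.8 and 38.9 CPM in dKO NPCs at passage 2, and at 50.4 and 53.9 CPM in WT NPCs and 31.9 and 27.7 CPM in dKO NPCs at passage 4. The dKO libraries were below the WT libraries at both passages, and the interaction was -0.27 (SE 0.35, adjusted p = 0.638 by the quasi-likelihood test of edgeR after Benjamini-Hochberg adjustment, as for each adjusted p here). KDM6B stood at 157 and 184 CPM in WT against 155 and 159 CPM in dKO NPCs at passage 2. At passage 4 the dKO libraries were above the WT libraries, at 188 and 184 CPM against 117 and 127 CPM. The interaction of KDM6B was 0.74 (SE 0.16, adjusted p = 0.00386), under the 2-fold threshold.

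The interaction was higher than 2-fold, meaning that dKO NPCs moved up relative to WT NPCs between the passages, in 1308 genes (9.72% of those tested). It was lower in 1287 genes (9.57%). Together they made up 19.3% of the genes tested, and 2061 of them (15.3% of those tested) also had an adjusted p below 0.05. The median interaction over all genes was 0.01. Genes just inside the threshold were DDX27 at 1.0017 and DCBLD1 at -1.0001, and HIBADH at 0.99921 and RCAN3 at -0.99936 lay just outside.

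WT NPCs moved more. The passage change was called in 2663 genes in WT NPCs (19.8% of those tested, 10.3% higher and 9.49% lower) and in 1322 genes in dKO NPCs (9.83%, 4.61% higher and 5.22% lower). Of the 2595 genes with a called interaction, 1344 (51.8%) had a called passage change in WT NPCs and none in dKO NPCs, against 370 (14.3%) with the reverse. Both genotypes moved in opposite directions in 186 genes (7.17%) and in the same direction by unequal amounts in 85 genes (3.28%). In 610 genes (23.5%) neither change passed on its own. The WT change was the larger of the pair in 1922 genes (74.1%).

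**Figure D1:**
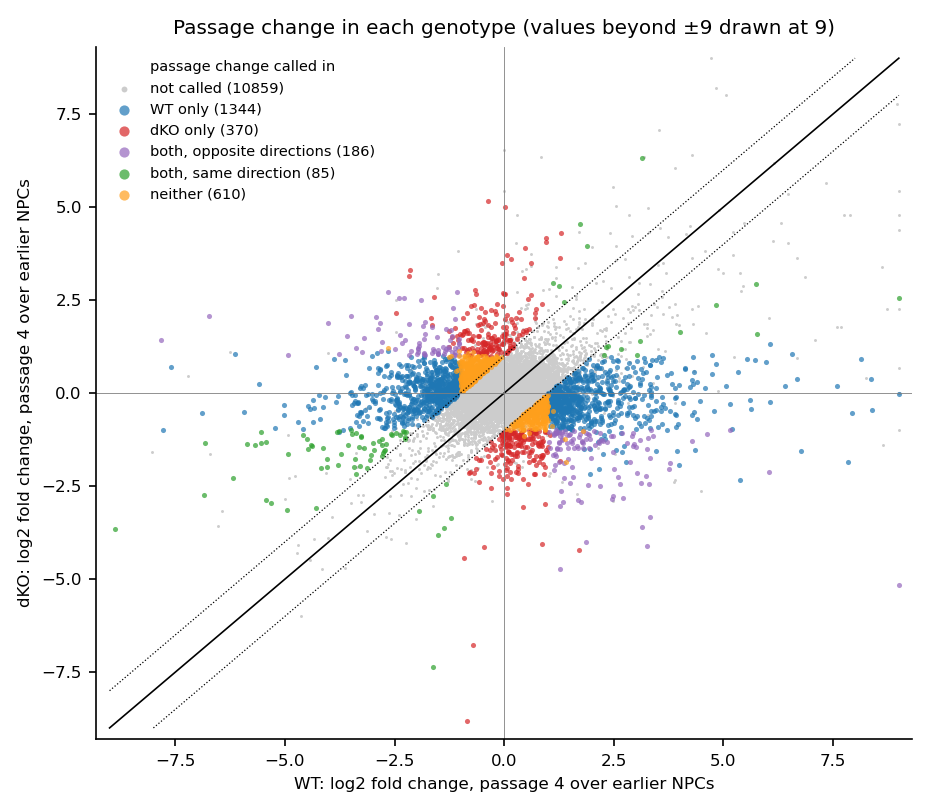
Passage change of WT NPCs (horizontal axis) and dKO NPCs (vertical axis) as log2 fold change of passage 4 over passage 2, 1 point per tested gene, coloured by the genotype whose passage change was called. The solid diagonal marks equal change in both genotypes and the dotted lines a 2-fold interaction; the 1344 genes that moved in WT NPCs only stretch along the horizontal axis and the 370 that moved in dKO NPCs only along the vertical axis.

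Genes with a higher interaction had a median passage change of -1.22 (log2) in WT NPCs and 0.41 in dKO NPCs. Genes with a lower interaction had a median passage change of 1.26 in WT NPCs and -0.50 in dKO NPCs. Seen across genotypes, the median knockout effect of the first set went from -0.18 at passage 2 to 1.43 at passage 4, and that of the second set from 0.13 to -1.61. The knockout effect was called at passage 4 alone in 1811 of the 2595 genes (69.8%), at passage 2 alone in 122 (4.7%) and in opposite directions at both passages in 51. Over all tested genes it was called in 4.42% at passage 2 (2.59% higher and 1.83% lower) and in 22.3% at passage 4 (11.1% higher and 11.2% lower). Depth differed between the passages. With the 8 NPC libraries thinned to the lowest total, which was added for these counts after seeing the data, the knockout effect was called in 5.59% of the genes at passage 2 and 22.9% at passage 4. In thinned libraries 1260 genes had a higher and 1303 a lower interaction, and 1951 of the 2595 genes (75.2%) were still called.

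The called genes differed in base composition, which the contrast did not use. The longest transcript had a median GC content of 54.2% in genes with a higher interaction, 46.7% in those with a lower one and 47.7% over all tested genes. With offsets for GC content and gene length in the fit, 1234 genes were higher and 1313 lower, and 82% of the 2595 genes were still called. Long noncoding RNAs made up 10.2% of the higher and 6.99% of the lower genes, against 8.12% over all tested genes.

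Promoters of 300 bases around the RefSeq start were available for 920 of the higher, 948 of the lower and 10106 of all tested genes. The median ratio of observed to expected CpG was 0.79 in the higher, 0.789 in the lower and 0.845 in all tested genes. The letters TAATTA, which are their own reverse complement and form the core that many homeodomain factors read, occurred in 3.16% of the promoters of lower genes, 1.3% of those of higher genes and 1.9% over all tested genes. The letters CAGATG on either strand, one spelling of the E-box CANNTG, stood in 11.3%, 11.5% and 9.17%. A match is a description of letters and not of binding. A pair of promoters is given as a CpG-dense and a CpG-poor example among the genes described next, with each CG in capitals. The NFIB promoter (GRCh38.p14, chr9:14322338-14322637, minus strand, 37 CG) belongs to a gene that rose in WT and fell in dKO NPCs. The MMRN1 promoter (GRCh38.p14, chr4:89879261-89879560, plus strand, 2 CG) belongs to a gene that fell in WT NPCs only.
NFIB: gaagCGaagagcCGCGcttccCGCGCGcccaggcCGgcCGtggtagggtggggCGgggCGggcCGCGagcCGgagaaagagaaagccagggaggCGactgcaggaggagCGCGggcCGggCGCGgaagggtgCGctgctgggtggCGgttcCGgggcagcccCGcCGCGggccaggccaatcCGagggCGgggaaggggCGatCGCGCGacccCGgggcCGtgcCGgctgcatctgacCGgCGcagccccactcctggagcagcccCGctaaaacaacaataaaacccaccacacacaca
MMRN1: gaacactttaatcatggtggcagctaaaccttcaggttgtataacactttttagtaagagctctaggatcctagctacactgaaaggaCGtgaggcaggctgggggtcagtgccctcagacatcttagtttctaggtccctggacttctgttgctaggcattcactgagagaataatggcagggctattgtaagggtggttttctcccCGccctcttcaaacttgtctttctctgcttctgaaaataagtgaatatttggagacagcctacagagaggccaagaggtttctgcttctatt

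Among genes with a lower interaction, those that moved in WT NPCs only included PEA15, NCAN, SEPTIN3 and SOX4, which had the smallest p of their class. PEA15 (ENSG00000162734, hg38 chr1:160205380-160215376), a phosphoprotein abundant in astrocytes, stood at 244 and 239 CPM in WT against 326 and 308 CPM in dKO NPCs at passage 2, and at 1921 and 1950.2 CPM in WT against 174 and 151 CPM in dKO NPCs at passage 4. The WT libraries rose (by 3.005 on the log2 scale, SE 0.11) while both dKO libraries lay below their passage 2 level (-0.96, under the 2-fold threshold). The interaction was -3.97 (SE 0.16, adjusted p = 4.43e-10), the smallest p of all genes.

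NCAN (ENSG00000130287, hg38 chr19:19211958-19252233) encodes neurocan, a chondroitin sulphate proteoglycan of brain matrix. It went from 91.4 and 106 CPM to 1434 and 1544 CPM in WT NPCs, and from 58.6 and 50.2 CPM to 35.8 and 37.3 CPM in dKO NPCs. Both WT passage 4 libraries were above every other NPC library. The interaction was -4.47 (SE 0.23, adjusted p = 9.08e-09). SEPTIN3, a septin of neurons, had an interaction of -2.80 (SE 0.17), and SOX4, a transcription factor of differentiating neurons, one of -2.55 (SE 0.16). Both rose in WT NPCs, by 1.99 and 1.91 on the log2 scale.

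The genes that rose in WT and fell in dKO NPCs were led by KCNQ3, CELF2, NFIB and LIPG. NFIB (ENSG00000147862, hg38 chr9:14081843-14398983), a nuclear factor I protein that acts in gliogenesis and whose promoter is printed above, stood at 7.83 and 17.1 CPM in WT against 33.8 and 33.9 CPM in dKO NPCs at passage 2. At passage 4 it stood at 436 and 525 CPM in WT and at 16.9 in each dKO library. It was thus higher in dKO NPCs at passage 2 and far lower at passage 4, with an interaction of -6.14 (SE 0.40, adjusted p = 1.75e-07). The passage 2 knockout effect (1.31, SE 0.36, adjusted p = 0.0699) rests on 6 and 23 reads in the WT libraries.

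KCNQ3, a subunit of the potassium channel that carries the M-current, went from 33.9 and 35.8 to 209 and 249 CPM in WT NPCs and from 33.0 and 23.3 to 2.81 and 5.15 CPM in dKO NPCs. The genotypes were close at passage 2 and far apart at passage 4 (interaction -5.53, SE 0.35, adjusted p = 5.57e-08). CELF2, an RNA-binding regulator of splicing, stood at 298 and 239 CPM in WT against 191 and 181 CPM in dKO NPCs at passage 2, and at 549 and 646 CPM against 58.6 and 60.8 CPM at passage 4. Its interaction was -2.81 (SE 0.18). LIPG, endothelial lipase, had an interaction of -4.37 (SE 0.34).

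The 192 lower genes that moved in dKO NPCs only included NR2E1, LRP8 and DDAH1. NR2E1 (ENSG00000112333, hg38 chr6:108166022-108188805), the nuclear receptor TLX that keeps neural stem cells in renewal, stood at 202 and 157 CPM in WT against 67.6 and 53 CPM in dKO NPCs at passage 2, and at 91.9 and 95.0 CPM against 2.81 and 2.7 CPM at passage 4. It was lower in dKO libraries at both passages, and its fall in dKO NPCs (-4.43, SE 0.24) was the larger one, since the WT change (-0.93, SE 0.15) missed the 2-fold threshold. The interaction was -3.51 (SE 0.30, adjusted p = 7.19e-07). LRP8, a receptor for reelin, had 97.9 to 109.6 CPM in the 4 passage 2 libraries, then 193 CPM in both WT libraries and 32.3 and 33.6 CPM in the dKO libraries at passage 4 (interaction -2.56, SE 0.23). DDAH1, which breaks down methylarginines, had an interaction of -2.22 (SE 0.21).

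Only 18 lower genes fell or rose in both genotypes. NKX2-1 (ENSG00000136352, hg38 chr14:36516392-36521149), a transcription factor of the ventral forebrain, went from 67.9 and 71.6 to 23.4 and 22.1 CPM in WT NPCs, and from 88.6 and 117 to 0.468 and 0.736 CPM in dKO NPCs. Both genotypes fell, and the dKO libraries ended at a level that 2 and 3 reads give, so the interaction of -5.73 (SE 0.49, adjusted p = 1.15e-06) rests on nearly no reads in that group. MPPED1 and NTN1 were named in the same class. NTN1, the guidance cue netrin-1, fell by 1.63 in WT and by 2.76 in dKO NPCs on the log2 scale, with an interaction of -1.13 (SE 0.23) that was under the threshold without the first WT or the second dKO library of passage 4 (-0.99 each) and in thinned libraries (-0.97).

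Among genes with a higher interaction, the class that moved in WT NPCs only was led by COL2A1, MMRN1, ATF3 and HMGA2. COL2A1 (ENSG00000139219, hg38 chr12:47972967-48004554), the chain of type II collagen, stood at 685 and 745 CPM in WT against 754 and 759 CPM in dKO NPCs at passage 2, and at 47.8 and 52.4 CPM against 631 and 647 CPM at passage 4. Only the WT passage 4 libraries stood apart, with a WT change of -3.83 (SE 0.14), and the interaction was 3.59 (SE 0.18, adjusted p = 7.65e-09). HMGA2 (ENSG00000149948, hg38 chr12:65824460-65966291), a chromatin protein of fetal stem cells, had the same shape, with 394 and 393 CPM in WT against 545 and 612 CPM in dKO NPCs at passage 2, then 38.8 and 47.5 CPM against 641 and 706 CPM. Its interaction was 3.40 (SE 0.21, adjusted p = 5.57e-08).

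ATF3, a transcription factor induced by stress, went from 60.1 and 60.4 to 5.34 and 4.37 CPM in WT NPCs and from 59.3 and 64.4 to 119.7 and 110.1 CPM in dKO NPCs. The groups were alike at passage 2 and parted at passage 4 (interaction 4.53, SE 0.28, adjusted p = 5.57e-08). MMRN1, a carrier protein of platelets and endothelium whose promoter is printed above, had an interaction of 3.42 (SE 0.21).

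Higher genes that moved in dKO NPCs only numbered 178 and were led by SAT1, SULF2, COL4A6 and FZD7. SAT1 (ENSG00000130066, hg38 chrX:23783173-23786210), the acetyltransferase that starts the breakdown of polyamines, stood at 44.4 and 38.0 CPM in WT NPCs at passage 2 and at 44.8 and 38.0 CPM at passage 4, while dKO NPCs went from 24.8 and 27.6 to 166 and 168 CPM. WT libraries had the same range at both passages, and dKO libraries went from below to above them (interaction 2.65, SE 0.23, adjusted p = 1.15e-06). The SAT1 knockout effect at passage 2 (-0.63, SE 0.20) was under the 2-fold threshold. COL4A6, a basement membrane collagen chain, went from 163 and 179.6 to 546 and 557 CPM in dKO NPCs, with an interaction of 2.53 (SE 0.23). SULF2, which trims sulphate groups of heparan chains, and FZD7, a Wnt receptor, had interactions of 1.99 (SE 0.19) and 1.87 (SE 0.22).

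VGF, RHPN1, IRX2 and OAF led the 71 genes that fell in WT and rose in dKO NPCs. VGF (ENSG00000128564, hg38 chr7:101162509-101165569), a precursor of secreted neuropeptides, stood at 52.2 and 47.0 CPM in WT against 25.5 and 24.8 CPM in dKO NPCs at passage 2, and at 4.01 and 6.16 CPM against 53.9 and 54.7 CPM at passage 4. The dKO libraries lay below the WT libraries at passage 2 and above them at passage 4 (interaction 4.34, SE 0.36, adjusted p = 6.65e-07). The VGF knockout effect at passage 2 (-0.97, SE 0.26) was under the 2-fold threshold. IRX2 (ENSG00000170561, hg38 chr5:2745845-2751677), a homeodomain factor of the Iroquois family, had 12 to 16.4 CPM in the 4 passage 2 libraries, then 1.67 and 2.31 CPM in WT against 58.8 and 49.8 CPM in dKO NPCs (interaction 4.97, SE 0.42). RHPN1 and OAF had interactions of 2.72 (SE 0.21) and 3.04 (SE 0.29).

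In 67 higher genes both genotypes moved the same way. DLK1 (ENSG00000185559, hg38 chr14:100725705-100738224), an imprinted transmembrane protein related to Notch ligands, went from 1247 and 1642 to 111 and 108 CPM in WT NPCs and from 2404 and 2832 to 873 and 810.5 CPM in dKO NPCs. All libraries fell, WT by 3.72 and dKO by 1.64 on the log2 scale, and the dKO libraries stayed above the WT libraries at both passages (interaction 2.09, SE 0.18, adjusted p = 7.79e-07). EFEMP1, a fibulin of the extracellular matrix, the small heat shock protein HSPB8 and the proton pump subunit ATP6V1B1 fell in the same way, with interactions of 2.76, 4.50 and 4.50.

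**Figure D2:**
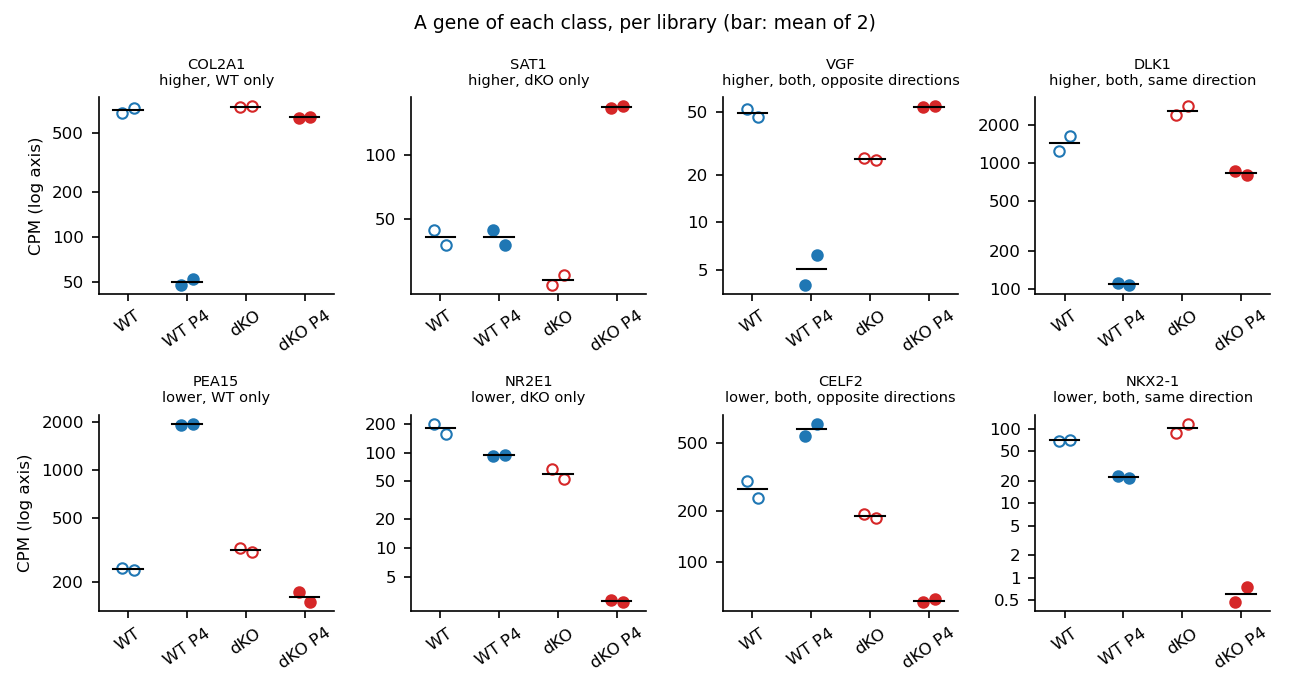
CPM of 8 genes in each NPC library on a log axis, 1 gene for each class of movement and direction, with open circles for passage 2, filled circles for passage 4 (P4) and a bar at the mean of 2 libraries. In COL2A1 and PEA15 the WT P4 libraries stand apart, at 47.8 and 52.4 CPM and at 1921 and 1950.2 CPM, and in SAT1 and NR2E1 the dKO P4 libraries do, at 166 and 168 CPM and at 2.81 and 2.7 CPM.

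The classes held different gene groups, as seen in 36 lists of marker and pathway genes (579 tested members). The lists were chosen with earlier results of these data known, and they are described by counts and medians beside the background of 9.72% higher and 9.57% lower genes. In bulk RNA, fewer cells of a type and less RNA per cell cannot be told apart.

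Of 14 pan-neuronal markers, 11 had a lower interaction and none a higher one, with a median interaction of -2.18 ± 0.19 beside 0.01 over all genes. Values after ± here and below are not errors of the median interaction. They give the spread between libraries of the list's median log2 level: the root of the within-group variances summed over the NPC groups. NEFM and NEFL, neurofilament genes chosen after their values were seen, lay on the other side (1.197, SE 0.81, and 1.105, SE 0.83) and were not called, and 2 members were called higher without either dKO day 28 library, with the 8 NPC libraries alone in the fit and in thinned libraries. The median passage change was 1.86 in WT and -0.22 in dKO NPCs. MAP2, a dendritic microtubule protein, went from 416 and 405 to 1645 and 1894 CPM in WT NPCs, and from 426 and 385 to 325 and 341 CPM in dKO NPCs, so that only the WT passage 4 libraries were high (interaction -2.39, SE 0.25, adjusted p = 2.92e-05). INA and SYT1, a neurofilament protein and a vesicle calcium sensor, rose in WT NPCs only, with interactions of -1.67 and -1.19. DCX, the doublecortin of migrating neurons, rose in WT NPCs from 384 and 311 to 1057 and 1286 CPM and fell in dKO NPCs from 197 and 165 to 69.8 and 76.5 CPM (interaction -3.07, SE 0.38). The summed level of the 14 markers was 1814 to 2053 CPM in WT and 1545 to 1617 CPM in dKO NPCs at passage 2, and 6527 to 7111 CPM against 1442 to 1464 CPM at passage 4.

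The cascade of excitatory cortical neurons gave the lowest list median, -5.12 ± 0.31 over 16 tested genes, of which 9 were lower and none higher. EOMES, which marks intermediate progenitors, stood at 1.31 and 1.49 CPM in WT against 1.5 and 1.41 CPM in dKO NPCs at passage 2, and at 402 and 413 CPM against 2.81 and 2.7 CPM at passage 4. A value of 3 counts is worth 3.92 and 2.24 CPM in the WT passage 2 libraries, so the starting level was at the floor and its interaction of -7.22 has a wide error (SE 0.96, adjusted p = 5.89e-05). With the NPC libraries thinned to the lowest total the EOMES call was lost (-2.98). BCL11A and NHLH1, a zinc finger and a helix-loop-helix factor of young neurons, rose in WT and fell in dKO NPCs, with interactions of -4.34 (SE 0.35) and -5.06 (SE 0.51). PRDM8, a zinc finger regulator of cortical neurons, did the same (-5.17, SE 0.75). TBR1, a factor of deep layer neurons that was chosen after its values were seen, rose in both genotypes, from 6.53 and 3.73 to 246 and 268 CPM in WT and from 4.5 and 2.83 to 30.7 and 24.8 CPM in dKO NPCs (interaction -2.82, SE 0.75, adjusted p = 0.0124). The 7 other members were not called. SLC17A6 and SLC17A7, vesicular glutamate transporters also chosen after their values were seen, had few reads in dKO NPCs. SLC17A6 stood at 7.83 and 7.45 CPM in WT against 0.751 and 0.707 CPM in dKO NPCs at passage 2, and at 27.7 and 26.97 CPM against 1.64 and 4.41 CPM at passage 4 (interaction 0.16, SE 1.304). SLC17A7 went from 1.31 and 0.745 to 70.8 and 69.1 CPM in WT NPCs and from 0 in both libraries to 2.81 and 1.72 CPM in dKO NPCs, so its fitted interaction (0.04) rests on a group with no reads.

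Several genes with no count in a genotype at both passages could not be tested by the count model, and they are named here after their values were seen. Among 7 such genes in dKO NPCs were NEUROD6 and NEUROD2, helix-loop-helix factors of excitatory neurons. NEUROD6 had no count in WT NPCs at passage 2 and 1092 and 1476 counts (364.8 and 379.1 CPM) at passage 4, at least 261-fold higher than at passage 2 and at least 1030-fold higher than in dKO NPCs at passage 4, with a floor of 3 counts over a group. NEUROD2 had 266.9 and 255.8 CPM in WT NPCs at passage 4 (at least 184-fold higher), and the adaptor gene SLA 187.7 and 172.1 CPM (at least 126-fold higher). All the other NPC libraries were at 0 for these 3 genes. On log2 CPM with a prior count of 2, an alternative added after seeing the data, limma gave NEUROD6 an interaction of -9.53 (SE 0.88, adjusted p = 4.68e-06), and the list median was -5.12 with the 3 genes at their bounds. In the reverse direction, PAX3, a factor of the dorsal neural tube, had no count in any WT NPC library, 0 and 1.41 CPM in dKO NPCs at passage 2 and 32.09 and 33.11 CPM at passage 4.

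Of 14 tested astrocyte and radial glia genes, 8 were lower and 2 higher, with a median interaction of -2.7 ± 0.45. The higher ones, named after their values were seen, were APOE, a lipid carrier of astrocytes that rose in dKO NPCs only (2.59, SE 0.59), and GJA1, the gap junction protein connexin 43 (1.78, SE 0.71, adjusted p = 0.127). SLC1A3, the glutamate transporter GLAST of radial glia, stood at 106 and 82.7 CPM in WT against 34.5 and 17.7 CPM in dKO NPCs at passage 2, and at 1781 and 1946 CPM against 16.4 and 19.9 CPM at passage 4. The WT rise of 4.33 (SE 0.18) had no counterpart in dKO NPCs, and the interaction was -4.85 (SE 0.32, adjusted p = 1.35e-07). CLU, the secreted chaperone clusterin, had 175 to 229 CPM in the 4 passage 2 libraries, 957 and 986 CPM in WT against 190.2 and 169 CPM in dKO NPCs at passage 4 (interaction -2.23, SE 0.17). SLC1A2, the second glial glutamate transporter, had an interaction of -4.48 (SE 0.44). GFAP, the astrocyte filament, chosen after its values were seen, rose in WT NPCs from 2.61 and 2.98 to 21.7 and 23.6 CPM (interaction -2.43, SE 0.67, adjusted p = 0.0151).

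Receptors and synapses showed the same direction. In the list of glutamate and GABA receptors 14 of 18 genes were lower and none higher, with a median interaction of -3.17 ± 0.56. GRIA1, an AMPA receptor subunit, went from 60.1 and 73.0 to 619.7 and 640.0 CPM in WT NPCs and from 84.8 and 67.9 to 45.2 and 41.7 CPM in dKO NPCs (interaction -4.03, SE 0.29, adjusted p = 4.81e-07). The GABA receptor subunit GABRB2 and the metabotropic receptor GRM5 rose in WT and fell in dKO NPCs (-4.56 and -5.09). Of 29 synaptic vesicle and scaffold genes 17 were lower and 1 higher, among the former NLGN1 (-2.61), SHANK2 (-2.23) and SV2A (-1.09).

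Of 17 voltage-gated ion channel genes 9 were lower, among them KCNQ3 and the calcium channel subunit CACNA2D1 (-2.50). CACNA2D2, a related subunit, was the 1 higher gene (1.502). Lower channel genes numbered 6 with a replicate block plus GC and length offsets, and 13 with the 8 NPC libraries alone in the fit. Of 32 axon guidance genes 12 were lower and 4 higher. The receptor ROBO1 went from 144 and 151 to 493 and 562 CPM in WT NPCs and from 132 and 129 to 95.3 and 105 CPM in dKO NPCs (interaction -2.22, SE 0.16), whereas its ligand SLIT2 had a higher interaction (1.26, SE 0.22). EPHA5 and NRP2, receptors for ephrins and semaphorins, were lower at -5.72 and -2.59.

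**Figure D3:**
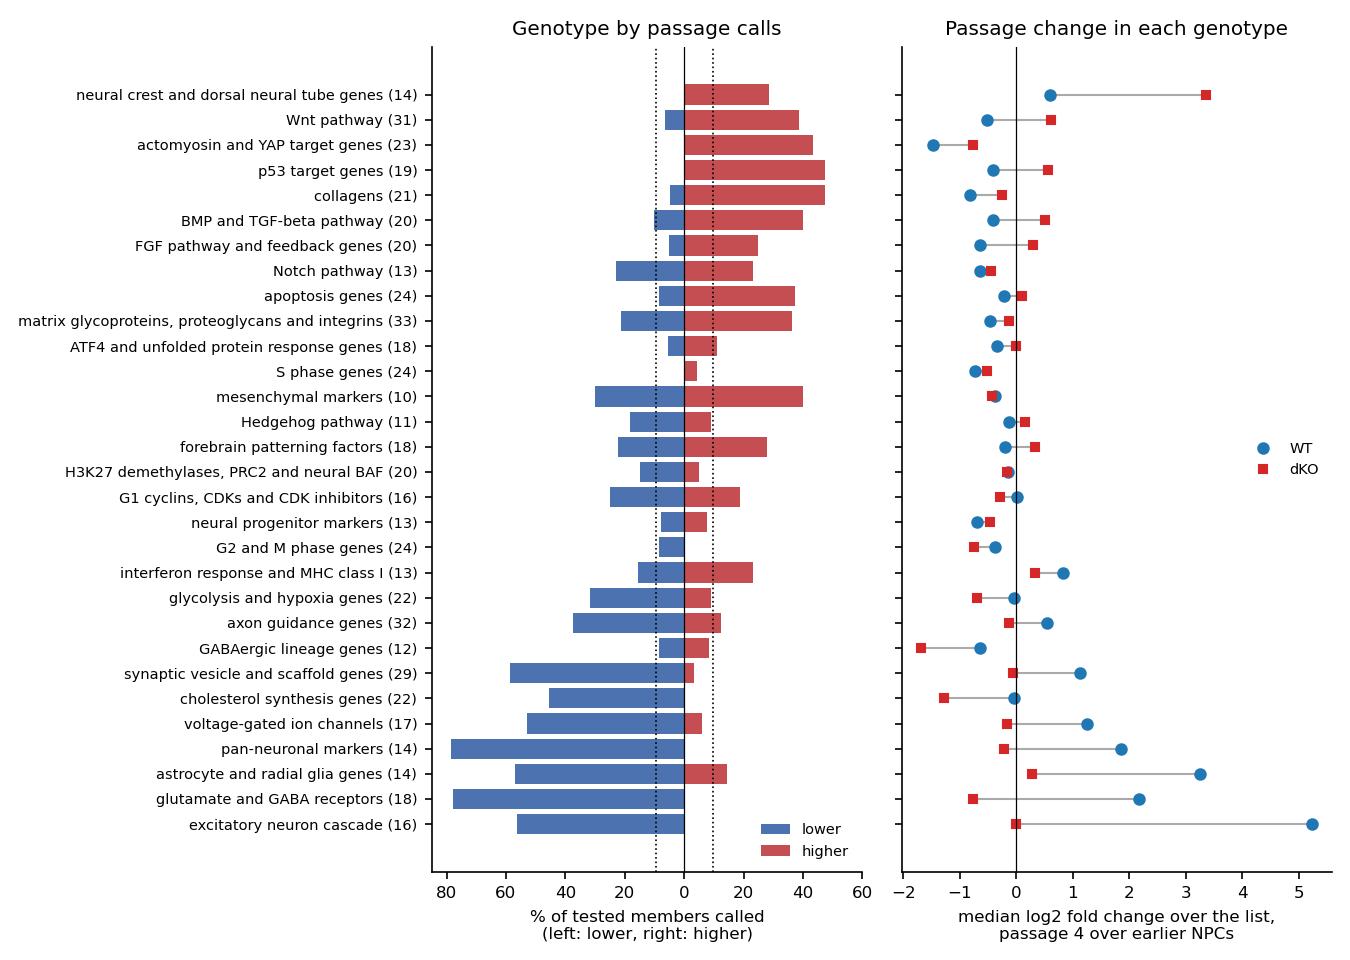
Share of tested members called lower (left) and higher (right) for each list with at least 10 tested genes, with dotted lines at the background of 9.57% and 9.72%, and the median passage change of each list in WT (circles) and dKO (squares) NPCs. Neuronal and glial lists have WT circles far right of the dKO squares (1.86 and -0.22 for pan-neuronal markers), and cholesterol synthesis has its WT circle near 0 (-0.04) and its dKO square at -1.27.

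In cholesterol synthesis genes the passage change lay in dKO NPCs. Of 22 tested genes 10 were lower and none higher, with a median interaction of -1.25 ± 0.09, a median passage change of -0.04 in WT and of -1.27 in dKO NPCs. In 8 of the 10 the passage change was called in dKO NPCs only, and in the other pair, SREBF2 and SC5D, in neither genotype. The summed level of the 22 genes was 3587 to 3682 CPM in the 4 WT libraries of both passages, 3910 and 4138 CPM in dKO NPCs at passage 2 and 1529 to 1538 CPM in dKO NPCs at passage 4. The genes encode the enzymes from acetyl-CoA to cholesterol and their regulators, the sterol-sensing transcription factors.

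DHCR7, a reductase of a late step, stood at 108, 99.9, 119 and 132 CPM at passage 2 in WT and then dKO NPCs, and at 100.2, 95.3, 45.9 and 42.2 CPM at passage 4 (interaction -1.43, SE 0.30). SQLE, the squalene epoxidase, chosen after its values were seen, had an interaction of -1.53 (SE 0.38, adjusted p = 0.0199). The sterol sensor INSIG1 stood at 23.9 and 29.2 CPM in dKO NPCs at passage 4 and at 82.8 to 107 CPM in the 6 other libraries, and was not called (interaction -1.78, SE 0.83, adjusted p = 0.182). INSIG1 was called in 6 of 21 alternatives with values of -1.75 to -1.90, namely without either dKO day 28 library, with the 8 NPC libraries alone in the fit, with those libraries thinned, and by DESeq2 and limma.

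SREBF2 encodes the transcription factor that switches on this pathway when sterols are low, and it binds the sterol regulatory element of its own gene and of its targets. It stood at 489 to 517 CPM in the 4 passage 2 libraries, at 589.6 and 597 CPM in WT and at 262 and 250.1 CPM in dKO NPCs at passage 4 (interaction -1.16, SE 0.22, adjusted p = 0.00133).

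**Figure D4:**
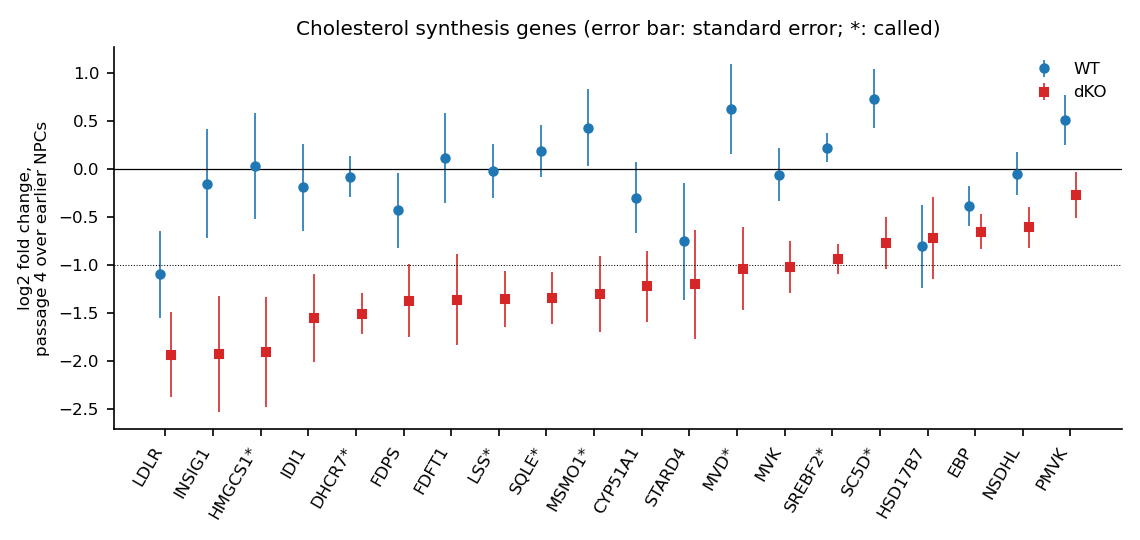
Passage change (log2 fold change of passage 4 over passage 2) of 20 of the 22 cholesterol synthesis genes in WT (circles) and dKO (squares) NPCs, with bars of 1 standard error, and an asterisk on the 8 drawn genes with a called interaction. WT circles gather around 0 and dKO squares lie below (medians of the 22 genes -0.04 and -1.27), with DHCR7 at -0.08 in WT and -1.51 in dKO NPCs.

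Of 22 tested glycolysis and hypoxia genes 7 were lower and 2 higher (median -0.62), with 4 lower without the first WT library of passage 2, the second dKO library of passage 2 or the second dKO library of passage 4. SLC2A1, the glucose transporter GLUT1, fell in WT NPCs from 664 and 715 to 84.5 and 76.8 CPM and stood at 857 and 917, then 522 and 493 CPM in dKO NPCs (interaction 2.29, SE 0.14, adjusted p = 5.57e-08). LDHA, lactate dehydrogenase, fell in dKO NPCs only, from 124 and 128 to 45.2 and 46.1 CPM (interaction -2.45, SE 0.32). The glycolytic enzymes TPI1 and PGAM1 were near the threshold (-1.02 and -1.13) and each lost its call in 6 of 21 alternatives, among them 4 that left out 1 library and the GC and length offsets (-0.95 and -0.80).

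Targets of p53 were on the higher side, with 9 of 19 tested genes higher and none lower (median 0.96 ± 0.14). Their summed level was 1226 to 1237 CPM in WT and 1350 to 1491 CPM in dKO NPCs at passage 2, and 881.9 to 972.9 CPM against 1982 to 2033 CPM at passage 4. TNFRSF10B, the death receptor DR5, went from 206 and 224 to 67.8 and 69.6 CPM in WT NPCs and from 227 and 269 to 303 and 287 CPM in dKO NPCs (interaction 1.89, SE 0.17, adjusted p = 1.48e-06). PMAIP1, the cell death protein NOXA, likewise fell in WT NPCs only (2.55, SE 0.38). CCNG1 had an interaction of 1.21 (SE 0.19) and XPC, a DNA repair protein, one of 1.06 (SE 0.21), which was under the threshold without the first WT or the first dKO library of passage 2 (0.87 and 0.96) and with the GC and length offsets (0.97). FDXR and SESN2, chosen after their values were seen, rose in dKO NPCs only (1.74 and 1.49). CDKN1A, the cell cycle inhibitor p21, rose in dKO NPCs from 104 and 126 to 250.4 and 223 CPM, and its interaction of 0.72 (SE 0.19, adjusted p = 0.0131) was under the threshold.

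Apoptosis genes had 9 of 24 members higher and 2 lower, among the former the decoy receptor TNFRSF10D (3.09, SE 0.34). CFLAR, an inhibitor of death receptor signalling, was lower (-2.25, SE 0.37), with 47.8 and 40.3 CPM in WT against 10.3 and 13.5 CPM in dKO NPCs at passage 4. Only MCM3 of 24 S phase genes was called (1.03), and it lost the call in 6 of 21 alternatives. Of 24 genes of G2 and M phase, NUSAP1 (-1.07) and RACGAP1 (-1.03) were lower, and neither was called without the second WT library of passage 2 (-0.93 and -0.95) or without the second dKO library of passage 2 (-0.91 and -0.87). RACGAP1 lost its call in 5 of 21 alternatives. Of 16 tested G1 cyclins, CDKs and CDK inhibitors 3 were higher and 4 lower. CCND1, cyclin D1, fell in WT NPCs from 261 and 236 to 45.8 and 45.7 CPM and stayed at 229 to 283 CPM in the dKO libraries of both passages (interaction 2.29, SE 0.21, adjusted p = 1.42e-06). The CDK inhibitor CDKN2C went the other way (-4.32, SE 0.53), with 50.4 and 47.0 CPM in WT NPCs at passage 4 and 1.96 to 7.83 CPM elsewhere. CDK6 fell in dKO NPCs only (-1.70, SE 0.28), and CDK5R1, the neuronal activator p35, rose in WT NPCs only (-2.07, SE 0.35).

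Of 21 collagen genes 10 were higher and 1 lower (median 0.81 ± 0.55). COL18A1 went from 204 and 273 to 47.4 and 43.4 CPM in WT NPCs and from 352 and 353 to 527 and 501 CPM in dKO NPCs (interaction 2.95, SE 0.25, adjusted p = 2.46e-06), and COL4A5 had an interaction of 1.42 (SE 0.15). Of 33 other matrix and integrin genes 12 were higher and 7 lower, or 8 higher and 10 lower without the second WT library of passage 2. LAMA1, a laminin chain, fell in WT NPCs only (2.05, SE 0.16), as did the heparan proteoglycan GPC3 (1.99, SE 0.23). The brain proteoglycan BCAN rose in WT NPCs from 1.31 and 0.745 to 330.1 and 329 CPM and stayed at 1.87 to 4.5 CPM in dKO NPCs (-8.84, SE 0.83).

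In the actomyosin and YAP target list 10 of 23 genes were higher and none lower (median 0.97 ± 0.32), with a median passage change of -1.47 in WT and -0.76 in dKO NPCs. The count was 4 without the second WT library of passage 2 and 15 without the first. CCN1 (CYR61), a YAP target, fell from 352 and 372 to 35.7 and 37.0 CPM in WT and from 345 and 358 to 130.0 and 126 CPM in dKO NPCs (interaction 1.86, SE 0.28). TPM2, a tropomyosin, and FLNC, a filamin, fell in WT NPCs only (2.23 and 1.15), and the FLNC call was lost with the GC and length offsets (0.72). LMNA lay at the threshold (1.01, SE 0.22), with its call lost in 10 of 21 alternatives.

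In the Wnt list 12 of 31 genes were higher and 2 lower (median 1.04 ± 0.27). Beside FZD7, the receptor ROR2 fell in WT and rose in dKO NPCs, from 3.92 and 6.71 to 1.67 and 1.28 CPM and from 12.8 and 14.1 to 34.7 and 33.6 CPM (interaction 3.28, SE 0.56, adjusted p = 0.000565), and in thinned libraries it was not called (1.90). FZD8, another receptor, was lower through a fall in dKO NPCs from 223 and 192 to 39.6 and 44.4 CPM (-2.45, SE 0.27), and DKK3, a secreted member of the Dickkopf family, through a rise in WT NPCs (-2.42, SE 0.29). SFRP2, a secreted Wnt modulator chosen after its values were seen, went from 377 and 357 to 3.67 and 6.42 CPM in WT NPCs and stood at 238 and 205, then 444 and 476 CPM in dKO NPCs (7.19, SE 0.97, adjusted p = 0.00264).

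BMP and TGF-beta genes had 8 of 20 members higher, or 5 without the second WT library of passage 2, and 2 lower. BMP2, a ligand, rose in dKO NPCs only, from 8.26 and 13.4 to 34.7 and 43.7 CPM (interaction 2.44, SE 0.58), and TGFB2 fell in dKO NPCs only (-2.38, SE 0.39). BMP4 and its intracellular inhibitor SMAD6 fell in WT NPCs only (4.19 and 2.44), but the WT passage 2 libraries had 2.61 and 12.7 CPM of BMP4 and 5.22 and 16.4 CPM of SMAD6. Without the second of them, both calls were lost (2.46 and 1.25). FGF feedback genes had 5 of 20 members higher, or 3 without that library, and 1 lower. DUSP4, a MAP kinase phosphatase, and ETV5, a target of FGF signalling, fell in WT NPCs only (2.08 and 1.98), while SPRY1, an inhibitor, rose and FGF13, a channel-binding relative of the FGFs, fell in dKO NPCs only (1.297 and -1.51). The SPRY1 call was lost without the second WT library of passage 2 (0.93).

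Notch genes split evenly, with 3 of 13 higher and 3 lower. HES6 and DLL3, which accompany the exit from the progenitor state, were lower (-2.77 and -2.78), and the Notch target HEY1 was higher (1.15), through falls in both genotypes, though not without the second WT library of passage 2 (0.91). Hedgehog genes had 1 of 11 higher, the coreceptor BOC (1.43), and 2 lower, among them the ligand SHH (-3.67). With the mean of 20 counts taken over the 8 NPC libraries, 8 Hedgehog genes were tested, 2 of them higher and 0 lower. BOC and SHH moved in dKO NPCs only. SHH had 2.67 and 5.91 CPM in WT against 0.234 and 0.245 CPM, a single read, in each dKO library at passage 4.

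Patterning genes showed both directions. Of 18 forebrain factors 5 were higher and 4 lower, or 2 lower without the second dKO library of passage 2. OTX2, a factor of forebrain and midbrain, fell in WT NPCs only (1.81, SE 0.23), and SIX6, of the eye field, fell in both genotypes (4.21, SE 0.71). Among 14 neural crest and dorsal neural tube genes 4 were higher and none lower (median 1.99 ± 0.54). Without the second WT library of passage 2 there were 2 higher with a median of 0.89, and limma called 9. ZIC2 went from 119 and 134 to 426 and 417 CPM in dKO NPCs and from 77 and 82.0 to 111 and 126 CPM in WT NPCs (1.16, SE 0.19). ETS1 and SNAI2 fell in WT NPCs only (2.76 and 1.95), and the SNAI2 call was lost without the second WT library of passage 2 (1.54). GDF7, a roof plate ligand, had 53.6 and 53.5 CPM in dKO NPCs at passage 4 and 0 to 4.47 CPM elsewhere, and its interaction of 5.54 (SE 2.16, adjusted p = 0.103) turned to -1.05 without the second WT library of passage 2. Of 5 tested midbrain, hindbrain and HOX genes 3 were higher, namely IRX2, LMX1B (3.45) and GBX2 (2.82, SE 1.12). Without that library GBX2 turned to -3.50 and LMX1B was not called (2.14).

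Of 13 neural progenitor markers 1 was higher and 1 lower, 7.69% each, and without the first dKO library of passage 4 there were 3 higher. PROM1, the stem cell antigen CD133, was higher, with a fall in WT NPCs from 103 and 95.4 to 25.1 and 30.3 CPM and 88.6 to 103 CPM in the 4 dKO libraries (1.87, SE 0.26). FABP7, the lipid-binding protein of radial glia, was lower, with a rise in WT NPCs from 129 and 111 to 1884 and 1719.8 CPM and 79.2 to 93.3 CPM in the dKO libraries (-4.02, SE 0.87, adjusted p = 0.0192). PAX6, VIM, SOX9 and CDH2 had interactions of 0.31, -0.30, -0.68 and 0.23 and were not called. SOX2 (-0.95), SOX3 (0.98) and MSI1 (0.98) came close to the threshold and passed it in 3, 6 and 4 of 21 alternatives.

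Lists of other cell types are described next, and their part in the results above was not tested. Of 6 tested epithelial markers 3 were higher and none lower, namely KRT18 (2.90), KRT8 (3.08) and KRT19 (4.69). Their summed level was 74.41 and 172.9 CPM in WT against 379.9 and 442 CPM in dKO NPCs at passage 2, and 25.72 and 21.32 CPM against 547.4 and 532.6 CPM at passage 4. Of 10 tested mesenchymal markers 4 were higher and 3 lower, with sums of 297.6 and 743.1 CPM in WT against 1602 and 2035 CPM in dKO NPCs at passage 2, and 333.7 and 342.4 CPM against 2031 and 2026 CPM at passage 4. The WT passage 2 libraries thus differed by over 2-fold in both lists. Without the second of them 2 mesenchymal markers were higher and 5 lower, and the list median of 0.16 went to -1.25. It had the other sign in 5 of 21 alternatives. COL1A2 rose in dKO NPCs only, from 161 and 219 to 806 and 803 CPM (2.02, SE 0.30), COL1A1 fell in WT NPCs only (2.67, SE 0.66), THY1 rose in WT NPCs only (-2.14) and LUM fell in dKO NPCs only (-1.47). KDR and EGFL7, the tested endothelial markers, were both higher (3.76 and 2.15), and so were CSPG4 (2.42) and PDGFRA (1.88) of 3 tested oligodendrocyte lineage markers. The PDGFRA call was lost without the second WT library of passage 2 (0.65). Of 12 GABAergic lineage genes 1 was lower and 1 higher, 8.33% each and near the background. The higher one was GAD1 (2.22, SE 0.51). No blood or microglia marker passed the filter, with AIF1, HBA1 and HBB at 0 in all 8 libraries.

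Histone H3K27 regulators and neural chromatin remodelling subunits had 1 of 20 members higher and 3 lower, near the background. JARID2, a PRC2 cofactor, was higher (1.37, SE 0.19). SMARCA2, an ATPase of BAF complexes, rose in WT NPCs from 26.1 and 21.6 to 120.3 and 134 CPM and stood at 23.3 to 33.8 CPM in the dKO libraries (-2.45, SE 0.29, adjusted p = 1.78e-05). The subunits DPF1 and ACTL6B, which join the BAF complex in neurons, were lower (-2.52 and -2.20), and the ACTL6B call was lost without the first dKO library of passage 2 (-1.78). Interferon response genes had 3 of 13 members higher, the membrane proteins IFITM1, IFITM2 and IFITM3 (3.44, 1.98 and 1.40), each through a rise in dKO NPCs only, with the IFITM3 call lost under the GC and length offsets (0.91), and B2M among 2 lower genes (-2.84), or 4 without either dKO day 28 library. ATF4 and unfolded protein response genes had 2 of 18 higher, ATF3 and DDIT3 (1.49, or 1.16 and not called without the second WT library of passage 2), and 1 lower, the cystine transporter SLC7A11 (-1.75), which fell in dKO NPCs only.

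The knockout effect at day 28 gave a look at the same genes in libraries outside the fold changes of the interaction. Those libraries did enter the count filter and the estimate of the spread, so the interaction calls are not independent of them. Of the 1308 genes with a higher interaction, 575 (44%) were higher in dKO than in WT cells at day 28 and 53 (4.05%) were lower, against 12.4% and 11.7% of all tested genes (24.2% in either direction). Of the 1287 genes with a lower interaction, 643 (50%) were lower at day 28 and 79 (6.14%) were higher. The share with the same direction was largest in genes that had moved in opposite directions (64.8% of higher and 70.4% of lower genes). It was 58.2% and 55.6% in genes that had moved in the same direction in both, 55.4% and 57.3% in genes that had moved in WT NPCs only, 43.3% and 38% in those that had moved in dKO NPCs only and 16.3% and 29.5% where neither change had passed. Over all tested genes, whatever their interaction, 26.2% of those that had moved in WT NPCs only were higher at day 28 and 29% lower. The shares were 24% and 18.3% for genes that had moved in dKO NPCs only, 29.6% and 45.7% for opposite directions, 32.1% and 22.9% for the same direction and 7.7% and 6.63% for neither. The differences between classes were not tested. The 2 dKO day 28 libraries differed by more than 2-fold in 705 genes, and leaving out 1 day 28 or NPC library at a time gave 469 to 618 genes in place of 575 and 553 to 804 in place of 643.

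PEA15 stood at 1493 and 1448 CPM in WT against 151 and 131 CPM in dKO cells at day 28, close to the passage 4 levels, and COL2A1 at 6.48 and 8.25 CPM against 740.3 and 591 CPM. The knockout effect was -3.39 and 6.48 (log2). NKX2-1 stood at 359 and 354 CPM in WT against 1.94 and 0.193 CPM in dKO cells. Other genes did not keep their direction. VGF was lower in dKO cells at day 28 (-1.38) with a higher interaction, and KCNQ3 (1.79) and MPPED1 (1.49) were higher in dKO cells with lower interactions. Among excitatory genes EOMES had 0.6 and 0.503 CPM in WT against 20.6 and 24.3 CPM in dKO cells (5.29), the reverse of passage 4, and TBR1 and NHLH1 were likewise higher in dKO cells (6.25 and 3.27).

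**Figure D5:**
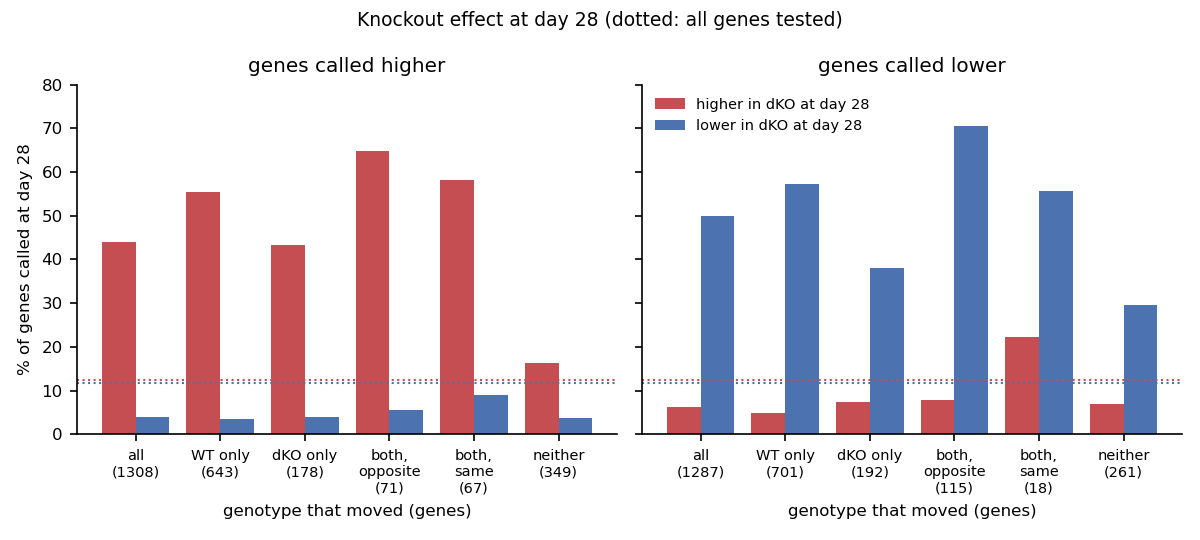
Share of genes called higher (red) or lower (blue) in dKO than in WT cells at day 28, for genes with a higher (left) and lower (right) interaction, in all and by the genotype that moved between the NPC passages, with dotted lines at the shares over all tested genes (12.4% and 11.7%). Among higher genes 44% were higher and 4.05% lower at day 28, and among lower genes 50% were lower and 6.14% higher.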

How the data were processed

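Counts of reads per gene were deposited by the authors for 12 libraries, made with TruSeq kits, NextSeq sequencing, HISAT2 2.0.4, SAMtools 1.3.1 and HTSeq 0.6.0 on hg38 (per the labels and the submitters' processing notes). The annotation release and strand setting are not given in the sources used here, so overlapping and antisense genes are uncertain. Symbols and coordinates came from GENCODE 44, which matched 57532 (98.7%) of the gene IDs.

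Genes whose mean count was 20 or more were fitted in 1 model of 6 group means with edgeR 4.0.16 (R 4.3.3, TMM normalization, robust quasi-likelihood test, Benjamini-Hochberg adjustment). SEs are the size of the log2 fold change over the square root of F. Calls needed an unadjusted p below 0.05 and a change above 2-fold. Levels are CPM, computed here from the counts. In simulated counts for 13454 genes, 82% of genes changed by log2 1.5 and 99% of those changed by log2 3 were called, and 1.8% of unchanged genes. The simulated counts were drawn independently with the spread fitted to these libraries. They hold no batch or culture effect, so they cannot give the rate of calls that such an effect would cause. Counting error limits passage 2 most, where 3 counts are worth 2.12 to 3.92 CPM.

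Named genes were the 4 protein-coding genes of smallest p in each class and direction, up to 4 called members of each list, NPC markers, KDM6A and KDM6B, and some genes that this rule names are not reported here. Members and lists were chosen with earlier results of these data known. Alternatives were DESeq2 1.42.0, other filters, NPC libraries alone, GC and length offsets, a replicate block, thinning and leaving out libraries. limma 3.58.1 with trend and leaving out the day 28 libraries were added after seeing the data.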

Additional observations from a re-analysis of the deposited data

Results flagged for a closer look

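The knockout effect differed between the passages, as tested by the interaction contrast in edgeR's quasi-likelihood fit, in 1308 genes with a higher and 1287 with a lower interaction. Among the genes named above whose WT and dKO libraries moved in opposite directions, the interaction was 2.72 for RHPN1, 4.34 for VGF, 4.97 for IRX2 and 3.04 for OAF, where WT NPCs fell and dKO NPCs rose. It was -5.53 for KCNQ3, -2.81 for CELF2, -6.14 for NFIB and -4.37 for LIPG, where WT NPCs rose and dKO NPCs fell.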

How the results depend on the processing

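Against 1308 higher and 1287 lower genes, DESeq2 gave 1170 and 1287, limma 1338 and 1408, and a fit with a replicate block 1309 and 1288. Replicate numbers do not pair the libraries (correlations of same-numbered deviations -0.0581 to 0.194). With genes of at least 1 count, 630 genes in place of 370 moved in dKO NPCs only, and with adjusted p 123 in place of 186 moved in opposite directions. Leaving out 1 library gave 1143 to 1389 higher and 1188 to 1432 lower genes, 1228 to 1400 that moved in WT NPCs only, 314 to 426 in dKO NPCs only, 148 to 209 in opposite directions, 74 to 114 in the same direction and 541 to 650 in neither. At day 28 it gave 469 to 618 and 553 to 804. The direction turned for NES (0.0425) and KDM6A (0.0428) with GC and length offsets, and with the block added (0.0490 and 0.0457). Leaving out 1 library, ZIC1 ranged from -1.08 to 0.165, the latter without the first WT library of passage 2, and GDF7 from -1.05 to 11.2 and GBX2 from -3.50 to 3.48, the lowest values without the second. Of 149 called genes named here, 25 lost the call in some setting and 124 kept it in all. The causes were not tested. The shallow passage 2 libraries limit genes of few counts.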
